A study of Mus musculus with 16 samples.

Results

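Long noncoding RNAs that act in the nucleus or host small nucleolar RNAs were followed through 16 mouse osteosarcomas. They were chosen by symbol, and all 9 of 9 were found among the 25054 genes of the count table. The 5 nuclear RNAs were *Malat1*, *Neat1*, *Kcnq1ot1*, *Miat* and *Pvt1*, and the 4 host genes were *Gas5*, *Snhg1*, *Snhg3* and *Snhg12*. All mice were OsxCreERT2+/-;p53fl/fl;Rb1fl/fl, so that tamoxifen (400 μg per g at 1 month of age) removed p53 and Rb1 in cells in which the *Osterix* promoter drives Cre, and both sexes were used at over 6 months of age. The KO tumors were in addition Arid1afl/fl, homozygous for floxed *Arid1a*, and WT means wild type for *Arid1a* on the same p53 and Rb1 background. The comparison of KO with WT asks what loss of *Arid1a*, a chromatin remodeling subunit, changes in the tumor. The 8 KO tumors came from 8 mice, with no body site in their labels, whereas only 4 mice gave the 8 WT tumors (N42 gave 4, N43 gave 2, and N215 and N25 gave 1 each), so WT tumors of a shared mouse are not independent and p-values over tumors are too small to that extent.

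Several facts about the libraries bear on everything that follows. Each KO library held between 1109487 (Massa) and 15059640 counts and each WT library between 7806160 and 16962329. Values are given as CPM, counts scaled to a common library total after TMM correction for composition, and 3 counts were worth 6.69 CPM in Massa, 4.03 CPM in Grilka and at most 0.340 CPM in WT. Genes linked to ribosomal RNA took 0.537% to 24.98% of the counts in KO, highest in Grilka and Massa, and 0.109% to 2.01% in WT. The KO tumors Montana and Oregon held 7.87% and 9.44% of their counts in a list of 10 skeletal muscle genes against at most 1.06% in WT, Prince held 8.38% in 10 salivary gland genes, and the WT tumor labeled lung (N25) held 3.63% in 8 lung genes. Massa held 0.481% in the same lung genes (KO median 0.000515%). Zelda held 0.256%, 0.173% and 0.227% in 8 liver, 8 lymphoid and 8 erythroid genes (KO medians 0.00348%, 0.00161% and 0.000736%). The list of 10 osteoblast genes ranged from 0.0571% (Prince) to 3.78% in KO and from 0.385% (N25 lung) to 10.1% in WT, and *Sp7*, which encodes Osterix, was at 0 counts in Massa and at 0.166 CPM in Prince. Of 8 genes of a macrophage list, 7 passed the threshold as lower in KO, where 2.15% of all tested genes did. With edgeR, 0 of them passed on counts summed per mouse (7 under an unadjusted p of 0.05), without N42 (7) or with the ribosomal RNA-linked content as a covariate (6), and 0 passed with limma-voom and the mouse as a random effect (7). Over all genes, 10 of 16007, 8 of 16050, 7 of 15413 and 17 of 15413 passed in these fits, in the same order. Under an unadjusted p of 0.05 were 1262, 1283, 1421 and 1371. *Arid1a* itself ranged from 107 to 270 CPM in KO and from 125 to 236 CPM in WT, and its log2 fold change was 0.16 (SE 0.22, edgeR adjusted p = 0.715). Counts over the whole gene include exons outside the floxed part, so they do not check the genotype.

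Long noncoding RNAs are transcribed like messenger RNAs but are not translated into a known protein. *Malat1* collects in nuclear speckles, where splicing factors are stored, and *Neat1* is the scaffold of paraspeckles, nuclear bodies built on its long isoform. *Kcnq1ot1* is an imprinted RNA, transcribed from the paternal chromosome, that silences neighboring genes in cis. *Miat* is a nuclear RNA first described in heart and nervous tissue, and *Pvt1* lies beside *Myc* and is often gained together with it in tumors. *Gas5* and the Snhg genes belong to another class. Their introns are cut out and trimmed into small nucleolar RNAs (snoRNAs), which guide chemical modification or processing of ribosomal RNA, and the spliced exons that remain are removed by nonsense-mediated decay. Many such hosts carry the 5′ terminal oligopyrimidine start typical of ribosomal protein genes, and their RNA is spared when translation slows.

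The start sites of the host genes are shown because *Gas5*, *Snhg1* and *Snhg3* were correlated across the tumors. RefSeq start sites (GRCm38.p6) were at hand for 7 of the 9 genes. The windows run from 40 bases before the start to 20 bases from the start on, on the transcribed strand, and capitals mark the letters TATA, overlapping copies included, where they begin 24 to 35 bases before the start (TATA reads the same on both strands). *Gas5* is given at the downstream of its 2 starts.
Gas5 (chr1:161035126-161035185, + strand): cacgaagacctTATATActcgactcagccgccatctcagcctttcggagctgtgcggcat
Snhg1 (chr19:8723447-8723506, + strand): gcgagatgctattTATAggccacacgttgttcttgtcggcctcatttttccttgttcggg
Snhg12 (chr4:132308638-132308697, + strand): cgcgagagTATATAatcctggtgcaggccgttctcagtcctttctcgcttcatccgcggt
Snhg3 (chr4:132353667-132353726, - strand): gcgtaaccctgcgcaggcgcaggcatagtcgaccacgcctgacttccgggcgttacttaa

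The letters TATA began 29, 27 and 32 bases before the starts of *Gas5*, *Snhg1* and *Snhg12*, and were not in the same stretch before *Snhg3* or before the upstream start of *Gas5*. Of all 32851 RefSeq start sites, 4.61% held TATA there. The first 5 transcribed bases were all C or T in *Gas5* and *Snhg12*, and also in *Miat*, which is no snoRNA host, and this was so at 4.44% of all start sites, and 9 of the first 10 were C or T in *Snhg1* and *Snhg12*. These matches describe the letters only. None of the starts of *Malat1*, *Kcnq1ot1* and *Miat* held TATA in that stretch.

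By GENCODE vM21 on the same assembly, *Malat1* (chr19:5795690-5802672) and *Neat1* (chr19:5824708-5845478) are neighbors on the minus strand, 22035 bases apart, and each is a single exon block. *Kcnq1ot1* (chr7:143203458-143296549, minus strand) is a single block of 93092 bases inside *Kcnq1*, which is read from the opposite strand. *Miat* lies at chr5:112213228-112229395 on the minus strand. *Pvt1* (chr15:62037986-62378096, plus strand) starts 47611 bases after the end of *Myc*, and only 2.06% of its span is exonic. *Gas5* lies at chr1:161034422-161038539 and *Snhg1* at chr19:8723475-8726443, both on the plus strand. *Snhg12* (chr4:132308623-132311024, plus strand) and *Snhg3* (chr4:132348014-132353686, minus strand) are 36989 bases apart. The merged exons of *Gas5*, *Snhg1* and *Snhg12* cover the snoRNAs inside them, so reads from a host exon and from a snoRNA cannot be told apart in these 3 counts. Whether reads were counted by strand is not stated in the sources used here. The counts of *Kcnq1ot1* and *Kcnq1* are therefore uncertain. They share 121 exonic bases on opposite strands, but all 93092 bases of *Kcnq1ot1* lie within the span of *Kcnq1*. Without strand, unspliced *Kcnq1* reads could count as *Kcnq1ot1* along its whole length. The count of *Miat* is uncertain too, since 2260 of its exonic bases lie opposite the noncoding gene *Gm26953*.

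The 9 RNAs covered a wide range of levels. Per kilobase of exon, the median level over the 16 tumors was highest for *Malat1*, at 2224 CPM per kb, followed by *Neat1* at 113 CPM per kb. *Gas5* (14.8 CPM per kb) and *Snhg3* (9.001 CPM per kb) came next, then *Snhg1* (4.98), *Snhg12* (4.84), *Kcnq1ot1* (2.98), *Pvt1* (2.37) and *Miat* (0.669 CPM per kb). Neighbors below *Snhg3* in this order differed by less than the range among the tumors. By mean CPM without regard to length, *Malat1* was 9th and *Neat1* 25th of the 15413 genes tested. The spread between tumors differed as much as the level: the highest tumor exceeded the lowest 6.17-fold for *Malat1* and 6.89-fold for *Gas5*, but 129-fold for *Kcnq1ot1* and 668-fold for *Pvt1*, and *Miat* was at 0 counts in 2 tumors.

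**Figure D1:**
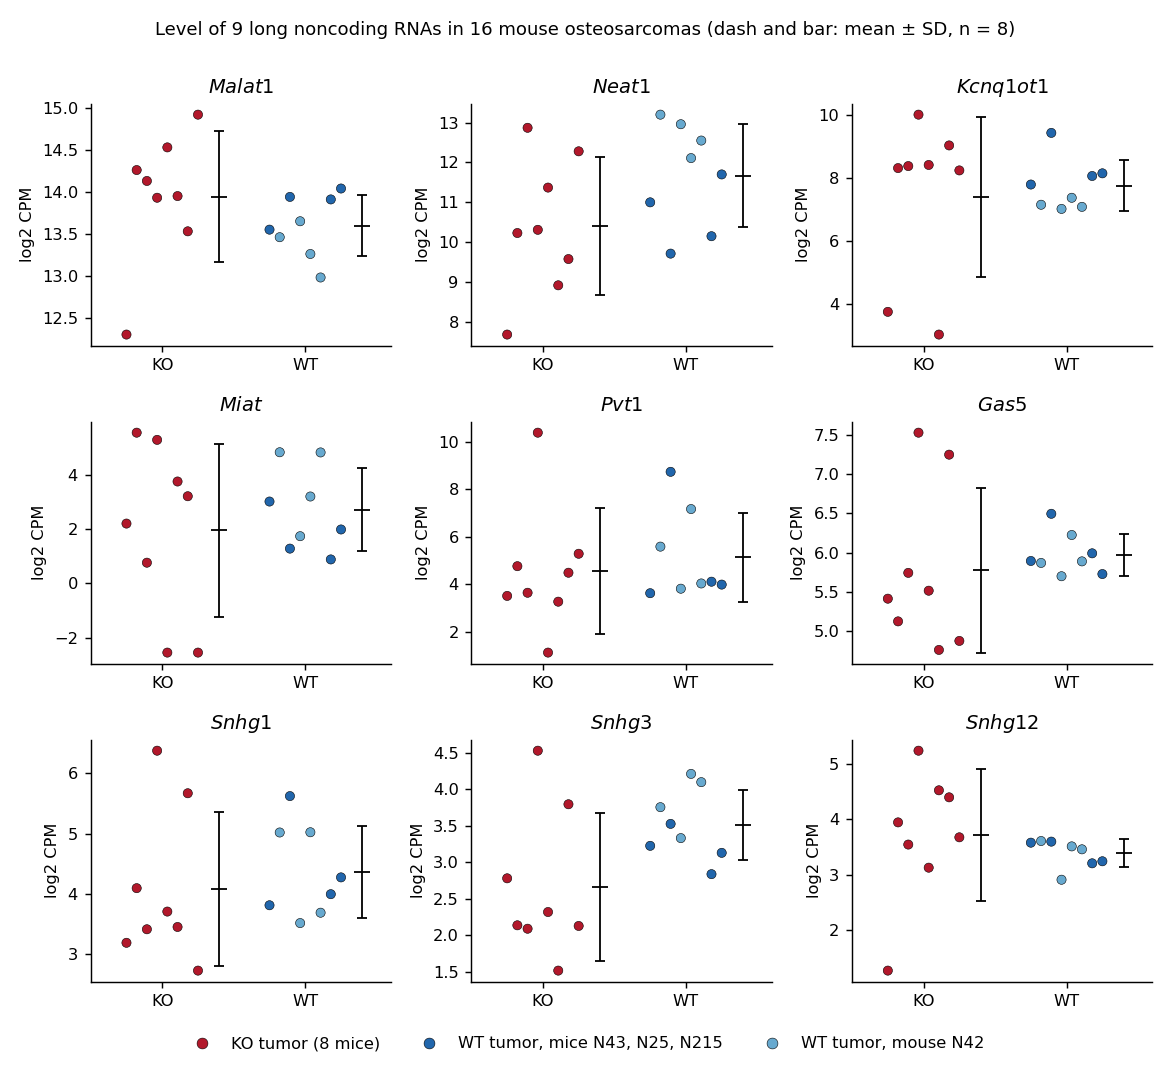
Level of each RNA as log2 CPM (vertical axis, prior count 2) in the 8 KO and 8 WT tumors, 1 point per tumor, with the mean and SD of each group beside the points. The groups overlap in all 9 panels, the KO points spread more widely than the WT points in all of them, and the tumors of mouse N42 (light blue) lie above the other WT tumors for *Neat1* and below them for *Kcnq1ot1*. The KO points come from 8 mice and the WT points from 4, so part of the WT spread is within a mouse. The 2 lowest points of *Miat* are tumors with 0 counts.

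None of the 9 RNAs passed the threshold of 0.05 for KO against WT in edgeR's quasi-likelihood test with Benjamini-Hochberg adjustment over all genes, in which 4.01% of the 15413 tested genes did (618 genes, of which 287 or 1.86% were higher and 331 or 2.15% lower in KO). None was under an unadjusted p of 0.05 either, against 23.0% of all tested genes. The KO and WT tumors overlapped for all 9, and they did not overlap for 0.415% of tested genes. The fitted log2 fold changes were positive for 7 RNAs, from 0.14 (*Snhg1*) to 1.08 (*Pvt1*), and negative for *Neat1* (-0.89) and *Snhg3* (-0.53), beside a median over all tested genes of 0.10. These estimates were wide. The 95% interval of *Gas5* ran from -0.64 to 0.99, that of *Malat1* from -0.66 to 1.59 and that of *Pvt1* from -1.45 to 3.61, so changes of 1.5-fold in either direction lie inside them. For *Kcnq1ot1*, *Miat*, *Pvt1*, *Gas5* and *Snhg1* the fitted change was positive while the difference in mean log2 CPM was negative, since the fit works on mean counts and the other on the mean of logarithms.

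**Figure D2:**
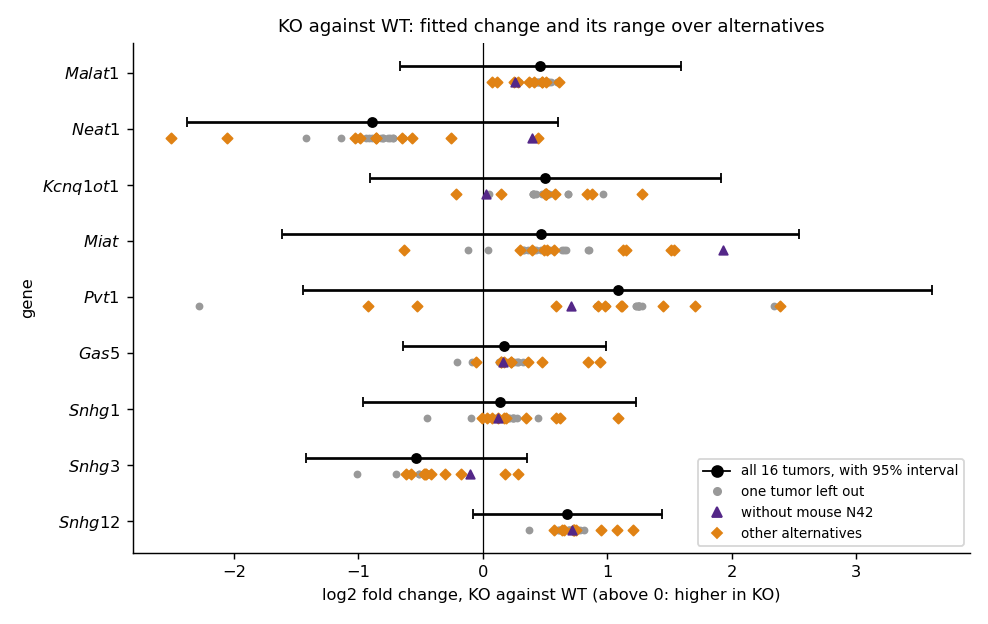
Fitted log2 fold change of each RNA, KO against WT (horizontal axis), with its 95% interval (black), and the estimates with 1 tumor left out (gray), without the 4 tumors of mouse N42 (purple) and under the other alternatives (orange). All 9 intervals cross 0, and the estimate of *Pvt1* moves from 1.08 to -2.28 when the KO tumor Ohio is left out.

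*Malat1* was the steadiest of the nuclear RNAs. Its level was 17568 ± 7746 CPM in KO (SD, n = 8) and 12737 ± 3067 CPM in WT (SD, n = 8), with a log2 fold change of 0.46 (SE 0.54, edgeR adjusted p = 0.646). The lowest KO tumor was Massa at 5034 CPM, the median of KO was 16854 CPM and the highest was Oregon at 31048 CPM, while the WT tumors ranged from 8053 to 16820 CPM around a median of 12431 CPM. The KO tumors Medusa, Montana, Prince and Oregon were above every WT tumor and Massa was below every one. The exact permutation test of mean log2 CPM over the 16 tumors gave 0.35 for KO minus WT (two-sided p = 0.282, 12870 assignments), and the difference turned to -0.31 when plain library totals replaced TMM scaling.

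*Neat1* varied far more than its neighbor. In KO it was 205 CPM in Massa, 483 in Grilka, 764 in Zelda, 1202 in Medusa, 1273 in Ohio, 2653 in Prince, 4956 in Oregon and 7460 in Montana. In WT it was 839 CPM in N215 R hind limb, 1136 in N25 lung, 2054 in N43 spine, 3326 in N43 pelvis, and 4435, 5997, 7959 and 9413 CPM in the L limb, L shoulder, R femur and R pelvis tumors of N42. The high WT values were thus those of a single mouse: the 4 tumors of N42 did not overlap the other 4 WT tumors. The high KO values were those of Montana, Oregon and Prince, the tumors with muscle or salivary gland genes, and the part of these tissues in the *Neat1* level was not tested. Across groups the log2 fold change was -0.89 (SE 0.71, edgeR adjusted p = 0.481). It was 0.39 without the tumors of N42 (adjusted p = 0.938) and -2.50 without Montana, Oregon and Prince (adjusted p = 0.0697), an alternative added after the values were seen. In bulk tumors, fewer cells of a type and less RNA per cell cannot be told apart.

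The ratio of *Neat1* to *Malat1* within a library does not depend on how libraries are scaled. It ran from 0.0306 (Grilka) to 0.417 (Montana) in KO and from 0.0535 (N215 R hind limb) to 0.837 (N42 R pelvis) in WT. The mean log2 ratio was -3.54 in KO and -1.92 in WT, and KO minus WT was -1.62 (exact permutation test, two-sided, p = 0.0365 over 16 tumors). With the mouse as the unit the difference was -0.77 (two-sided exact permutation test, p = 0.370 over 8 KO and 4 WT mice), so the call over tumors did not hold. That unit averages the tumors of N42 and of N43 and also leaves fewer WT values, and the part of each was not tested. Neither value was adjusted over the 4 ratios computed.

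Of 14 paraspeckle proteins, 0 passed the threshold and 2 were under an unadjusted p of 0.05 (median log2 fold change 0.36). *Sfpq*, a core paraspeckle protein, was 460 ± 338 CPM in KO and 347 ± 142 CPM in WT (SD, n = 8 each), and *Hnrnpk* was 282 ± 46.0 and 271 ± 69.3 CPM. Of 14 speckle proteins 0 passed and 5 were under an unadjusted p of 0.05 (median 0.26). Over all tested genes 4.01% passed, 23.0% were under that p and the median was 0.10, to be set beside the list counts here and below. *Srrm2*, a scaffold of speckles, had a log2 fold change of 1.20 (SE 0.41, edgeR adjusted p = 0.0963), and *Son*, the other scaffold, of 0.08 (SE 0.29, adjusted p = 0.908). Estimates were above 0 for 13 of 14 proteins in each list, which is not a count of changed genes. Of 6 genes beside *Malat1* and *Neat1* on chromosome 19, 0 passed and 2 were under an unadjusted p of 0.05 (median -0.22).

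*Kcnq1ot1* was near absent in 2 libraries. Massa and Grilka held 6 counts of it each, at 13.4 and 8.06 CPM, whereas the other 6 KO tumors held 304 (Oregon), 320 (Medusa), 335 (Montana), 343 (Prince), 527 (Zelda) and 1042 CPM (Ohio). These 2 libraries had the fewest counts and the largest ribosomal RNA-linked shares, 18.2% and 24.98%, and still held 2257 and 11776 counts of *Malat1*. In WT the 4 tumors of N42 ranged from 130 to 167 CPM, below all other WT tumors, which ranged from 223 CPM (N43 spine) to 695 CPM (N215 R hind limb). The log2 fold change was 0.50 (SE 0.67, edgeR adjusted p = 0.701), and it was 0.03 without the tumors of N42.

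*Kcnq1*, a potassium channel gene in whose intron the RNA starts, was 0.945 to 20.2 CPM in WT and 2.24 to 47.1 CPM in KO. All 8 KO tumors were above the WT median, but the log2 fold change of 1.64 (SE 0.74) did not pass the threshold (edgeR adjusted p = 0.199). The highest KO tumor was Prince, which carried the salivary gland genes, and the highest WT tumor was N25 lung at 20.2 CPM. Without the lung tumor the estimate was 2.78 (adjusted p = 0.0198), and without Prince it was 0.89 (adjusted p = 0.479). Of the 7 tested genes in the imprinted domain or at its edge, 1 passed, *Nap1l4*, a histone chaperone gene at the edge of the domain, which was 79.4 ± 17.8 CPM in KO and 47.1 ± 8.33 CPM in WT (SD, n = 8 each; log2 fold change 0.75, SE 0.19, edgeR adjusted p = 0.0369). It was past the threshold in 11 of 27 alternative fits, and in 7 of the 16 with 1 tumor left out (0.66 to 0.80), and its adjusted p was 0.395 without N42. The fit without the lung tumor enters the 27 both by itself and as 1 tumor left out. *Cdkn1c*, a growth inhibitor known to be silenced by *Kcnq1ot1* on the paternal chromosome, was 27.1 ± 22.7 CPM in KO and 13 ± 11.8 CPM in WT (SD, n = 8 each; adjusted p = 0.394). Over the 16 tumors, *Kcnq1ot1* and *Cdkn1c* had a Pearson r of -0.19 and a Spearman rho of 0.00294 on the log2 CPM scale, and r was 0.19 without the 2 tumors farthest out in *Kcnq1ot1*.

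*Miat* was the scarcest of the 9. Prince and Oregon held 0 counts, where 3 counts would have been 0.249 and 0.839 CPM. Montana held 1.53, Massa 4.46 (2 counts), Zelda 9.16, Grilka 13.4 (10 counts), Ohio 39.3 and Medusa 47.3 CPM, and the WT tumors ranged from 1.68 CPM (N25 lung) to 28.6 CPM (N42 R pelvis). Within N42 alone the 4 tumors differed 8.99-fold, from 3.18 CPM in the R femur to 28.6 CPM in the R pelvis. The log2 fold change was 0.47 (SE 0.99, edgeR adjusted p = 0.823), and it was -0.12 without the KO tumor Medusa.

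*Pvt1* had the widest range among the 8 RNAs with counts in every tumor. In KO it was 1.99 CPM in Prince, 9.399 in Grilka (7 counts), 11.2 in Massa (5 counts), 12.2 in Montana, 22.1 in Zelda, 26.8 in Medusa, 38.6 in Oregon and 1330.1 CPM in Ohio. In WT it was 12.1 to 16.98 CPM in 5 tumors, 47.6 in N42 R pelvis, 143 in N42 L limb and 424 CPM in N215 R hind limb. The medians were 17.2 CPM in KO and 16.6 CPM in WT, and 3 tumors, 1 KO and 2 WT, stood above the rest. The log2 fold change of 1.08 (SE 1.20, edgeR adjusted p = 0.629) turned to -2.28 without Ohio (adjusted p = 0.124).

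*Myc*, the neighboring transcription factor gene, was 333 CPM in Ohio, 153 in Grilka, 147 in N42 L limb and 132 in N215 R hind limb, and between 8.92 and 71.6 CPM in the other 12 tumors. The 3 tumors with the most *Pvt1* were thus among the 4 with the most *Myc*. Over the 16 tumors the 2 genes had r = 0.72 and rho = 0.56 (log2 CPM), and r was 0.46 without the 2 tumors with the most extreme *Pvt1*. In Ohio and N215 R hind limb, *Pvt1* held 3.99 and 3.22 times the counts of *Myc*, whereas the ratio was at most 1.5 in the other tumors. Short RNAs inside the *Pvt1* span were high in Ohio too: *Gm27782* was 52.8 CPM, against 14.1 CPM in N215 R hind limb, 5.50 CPM in N42 L limb and at most 1.41 CPM elsewhere. *Macroh2a3*, a pseudogene within *Pvt1*, had 539 counts in Ohio and at most 3 in any other tumor.

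Genes around *Pvt1* differed between these 3 tumors in which of them were raised. The tumors were chosen for their *Pvt1* level, so these values are a description. In N42 L limb, 22 of 25 tested genes between 4.34 and 1.22 Mb upstream of *Pvt1* were more than 1 log2 unit above the median of the other 13 tumors, where 8.51% of all tested genes were. They formed an unbroken run of 22 from *Derl1*, 4.17 Mb upstream, to *Trib1*, 2.39 Mb upstream, and were raised by 1.601 to 2.75, with *Myc* at 2.078 and *Pvt1* at 3.18. The 2 genes 1.22 Mb upstream and the 10 genes downstream were not over 1. In N215 R hind limb raised genes lay on both sides: *Lratd2* and *9930014A18Rik* 1.22 Mb upstream were at 2.92 and 4.02, and *Fam49b* and *Asap1*, 1.89 and 2.05 Mb downstream, at 2.996 and 2.26. *Atad2* and *Sqle*, 3.94 and 2.72 Mb upstream, were at 1.64 and 1.51. In all, 4 of the 25 upstream and 2 of the 10 downstream genes were over 1 there, beside 16.9% of all tested genes. In Ohio *Myc* was at 3.25 and *Pvt1* at 6.40, while *Fam49b* and *Asap1* were at 0.27 and 0.22 and 6 of the 25 upstream genes were over 1 (median 0.18), among them *9930014A18Rik* at 1.76 and *Atad2* at 1.84, and 3 of the 10 downstream genes, *Ccn4*, *Tg* and *Gm20405*, at 1.01 to 1.29, beside 16.2% of all tested genes. The other 3 tumors of N42 had no such level of *Pvt1*, at 13.8, 16.1 and 47.6 CPM.

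**Figure D3:**
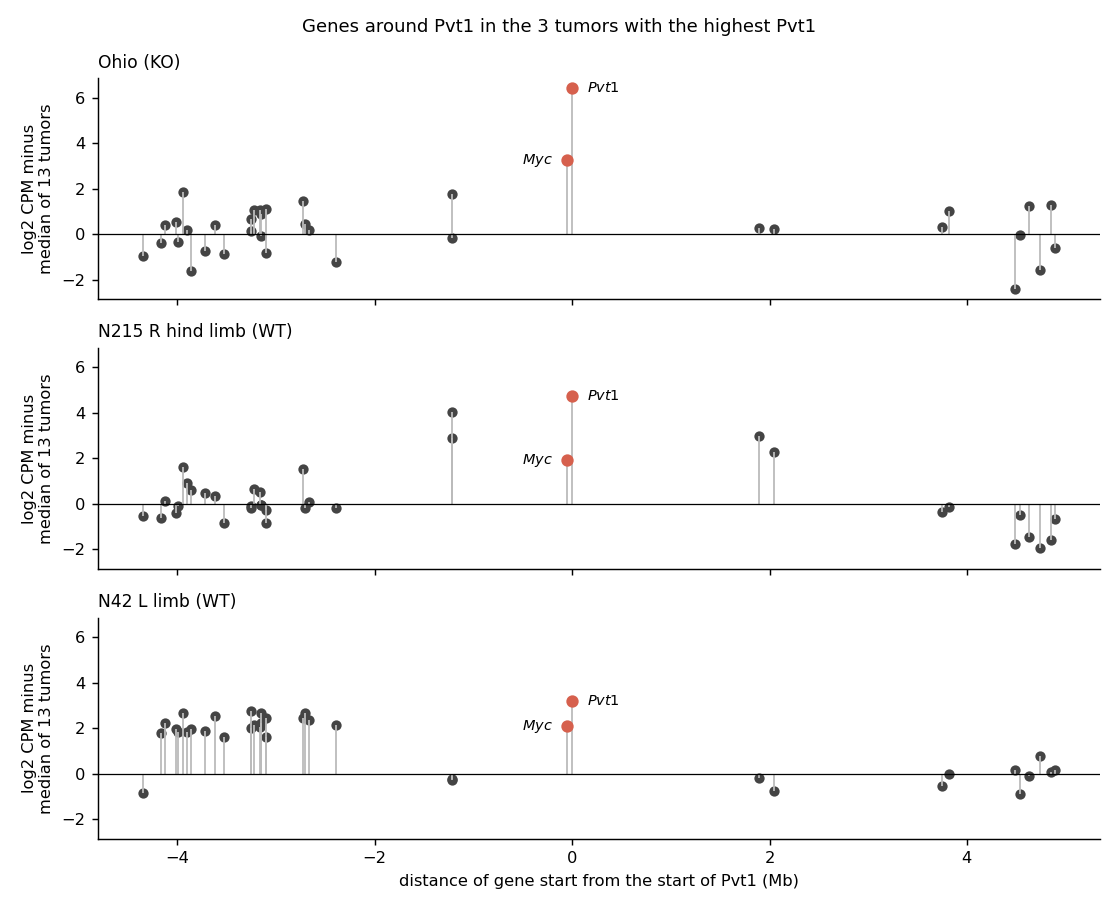
Tested genes within 5 Mb of the start of *Pvt1* in Ohio (KO), N215 R hind limb (WT) and N42 L limb (WT), placed by the distance of their start from that of *Pvt1* (horizontal axis, Mb) and by log2 CPM minus the median of the other 13 tumors (vertical axis). *Pvt1* and *Myc* (red) are raised in all 3; in N42 L limb 22 genes 4.17 to 2.39 Mb upstream are raised too, in N215 R hind limb 4 upstream and 2 downstream genes exceed 1, highest 1.22 Mb upstream and 1.89 to 2.05 Mb downstream, and in Ohio 6 upstream and 3 downstream genes exceed 1, none above 1.84.

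For the other 8 RNAs the median of the tested genes within 2 Mb (36 to 149 genes) lay between -1.22 and 0.86 log2 units of the mean of the other tumors in every tumor. The extremes were around *Gas5*, at -1.22 and -1.02 in Massa and Grilka, the shallowest libraries, and at 0.86 in Zelda and 0.85 in N43 spine. *Gas5* itself was at -0.49, -1.19, 1.47 and 0.02 in these tumors, and in Ohio, where it was highest (1.77), its neighbors were at 0.12. Around *Snhg3* and *Snhg12* the medians stayed between -0.34 and 0.27.

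*Gas5* and *Snhg1* were highest in the same KO tumors. *Gas5* was 26.9 CPM in Grilka, 29.1 in Oregon, 34.6 in Medusa, 42.4 in Massa, 45.5 in Prince, 53.3 in Montana, 152 in Zelda and 185 CPM in Ohio, and 51.7 to 74.6 CPM in 7 WT tumors with 90.1 CPM in N215 R hind limb. *Snhg1* was 6.43 CPM in Oregon to 16.9 CPM in Medusa in 6 KO tumors, 50.7 CPM in Zelda and 82.9 CPM in Ohio, and 11.3 to 49.1 CPM in WT. Ohio and Zelda were thus above every WT tumor for both genes, and 5 KO tumors for *Gas5* and 4 for *Snhg1* were below every WT tumor. Neither passed the threshold. *Gas5* was 71.1 ± 61.4 CPM in KO and 63.6 ± 12.8 CPM in WT (log2 fold change 0.17, SE 0.39, edgeR adjusted p = 0.834), and *Snhg1* was 24.99 ± 27.4 and 23.3 ± 13.4 CPM (0.14, SE 0.52, adjusted p = 0.909; SD, n = 8 each). Without Ohio both estimates turned negative, to -0.21 and -0.45. Within KO, both were lower in libraries with more ribosomal RNA-linked content (r = -0.89 for *Gas5* and -0.78 for *Snhg1*, 8 tumors). Within WT the sign was the opposite (r = 0.42 and 0.50, 8 tumors), and over all tumors r was -0.59 and -0.43. With that content as a covariate the edgeR estimates were 0.85 (adjusted p = 0.471) and 0.62 (adjusted p = 0.742). That fit gives KO and WT a common slope, which the opposite signs do not bear out. The SD of log2 CPM of *Gas5* was 1.05 over the KO tumors and 0.27 over the WT tumors.

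*Snhg3* was 22.9 CPM in Ohio, 13.7 in Zelda, 6.69 in Massa, 4.81 in Prince, 4.22 in Medusa, 4.19 in Oregon, 4.08 in Montana and 2.69 CPM in Grilka, and 6.97 to 18.3 CPM in WT. In 6 KO tumors it was below every WT tumor, with 2 to 58 counts each. The log2 fold change was -0.53 (SE 0.42, edgeR adjusted p = 0.475). In mean log2 CPM the difference was -0.85 (two-sided exact permutation test over tumors, p = 0.0505), and -0.69 with the mouse as the unit (exact permutation, p = 0.222). As a description, its level and the ribosomal RNA-linked content of a library ran opposite (r = -0.75, rho = -0.73 over 16 tumors, r = -0.72 without the 2 farthest, log2 scales), and with that content as a covariate the estimate was 0.28 (adjusted p = 0.858). The genotype and this content cannot be told apart for the most affected libraries, which are all KO.

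By the edgeR fit *Snhg12* was the member closest to a difference, whereas by the permutation test over tumors that was *Snhg3*. It was 2.23 CPM in Massa (1 count), 8.55 in Prince, 11.5 in Montana, 12.6 in Oregon, 15.2 in Medusa, 20.9 in Zelda, 22.8 in Grilka and 37.6 CPM in Ohio, and within 7.33 to 12.01 CPM in all WT tumors. In 5 KO tumors it was above every WT tumor and in Massa below. The log2 fold change was 0.68 (SE 0.36, 95% interval -0.08 to 1.44, edgeR adjusted p = 0.269), and it was positive in all 27 alternative fits. It passed the threshold in 1 of them, without Massa, Grilka, Montana, Oregon and Prince (1.21, SE 0.27, adjusted p = 0.0438), where 2.70% of tested genes passed and only Medusa, Ohio and Zelda remained as KO tumors. This alternative was added after the values were seen. DESeq2, which called 12.5% of the genes to which it gave an adjusted p, gave 0.75 (adjusted p = 0.123). In mean log2 CPM the difference of *Snhg12* was 0.33 (two-sided exact permutation test over tumors, p = 0.490). It was 0.32 with the mouse as the unit (exact permutation, p = 0.618) and -0.30 with plain library totals over tumors.

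**Figure D4:**
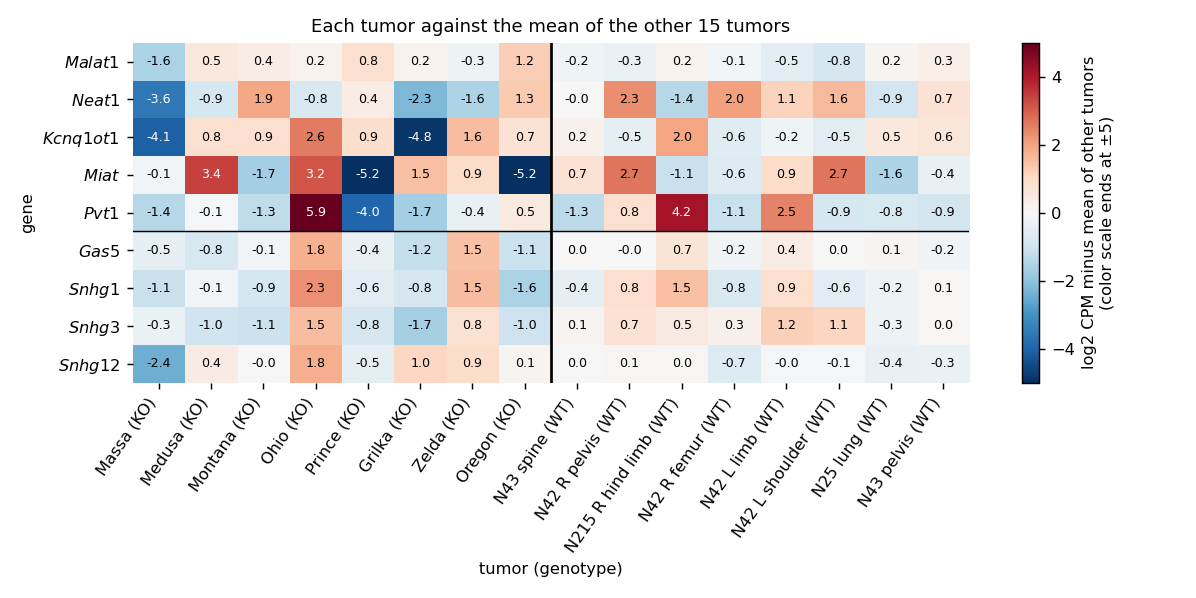
log2 CPM of each RNA (rows) in each tumor (columns, KO left of the line) minus the mean of the other 15 tumors, with the value printed in each cell. Ohio is above 1.5 for *Gas5*, *Snhg1*, *Snhg3* and *Snhg12* and at 5.9 for *Pvt1*, *Kcnq1ot1* is below -4 in Massa and Grilka, and *Miat* is at -5.2 in Prince and Oregon.

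As a description over the 16 tumors, *Gas5* and *Snhg1* had r = 0.87 and rho = 0.78 on the log2 CPM scale (r = 0.73 without the 2 farthest tumors), *Gas5* and *Snhg3* 0.80 and 0.81 (0.79), and *Snhg1* and *Snhg3* 0.72 and 0.72 (0.60). *Snhg12* was less alike, with r from 0.17 to 0.54 with the other hosts. *Gas5* and *Snhg3* had r = 0.95 within KO and 0.29 within WT, and *Snhg1* and *Snhg3* 0.88 and 0.33, so these pairs rested on KO tumors, while *Gas5* and *Snhg1* had 0.92 and 0.78. Of the 36 pairs among the 9 RNAs, 9 had r above 0.5, and the lowest was -0.50 between *Malat1* and *Miat*. The points share libraries and their scaling, and 4 of them come from mouse N42 and 2 from mouse N43.

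Genes with the most similar pattern to each RNA were taken from all tested genes by Pearson r of log2 CPM over the 16 tumors. *Nop58*, a core protein of box C/D snoRNA particles, was first for both *Snhg1* (r = 0.90) and *Pvt1* (r = 0.84), with 145 CPM in Ohio, 130 in N215 R hind limb, 101 in Zelda and 28.3 to 82.5 CPM elsewhere. Without the 2 tumors farthest out in the RNA compared, r with *Nop58* was 0.82 for *Snhg1* and 0.65 for *Pvt1*. *Eif4e*, the cap-binding translation factor, was second for *Pvt1* (r = 0.82), ahead of *Ptcd3* (r = 0.82), and *Gas5* itself was second for *Snhg1* (r = 0.87), ahead of *Vrk1* (r = 0.86). *Gas5* was closest to *Gm37204* (r = 0.95), *Nemp1* (0.90) and *Gm43747* (0.88), *Snhg3* to *Mfsd14a* (0.90), *Gm25780* (0.89) and *Gm42449* (0.87), and *Snhg12* to *Mtrf1l* (0.93), *Gmeb1* (0.90) and *Tyw3* (0.89). *Malat1* was closest to *Pick1* (0.93), *Sin3b* (0.90) and *Inpp4a* (0.90), and *Neat1* to *Arl6ip5* (0.91), *Mafg* (0.90) and *Slc20a2* (0.89). *Miat* was closest to *Gja1*, the gap junction gene of osteoblasts and other cells (0.88), *Septin10* (0.86) and *Unc5c* (0.86). *Kcnq1ot1* was closest to the unnamed loci *Gm7435* (0.96), *Gm42979* (0.96) and *Gm38248* (0.95), and 85 genes had r above 0.9 with it. Massa and Grilka, with 6 counts of *Kcnq1ot1* each, carried these values: without them 9 genes had r above 0.9, and the 3 loci had r = 0.86, 0.79 and 0.75, an alternative chosen after seeing the data. Without these 2 tumors *Mtrf1l*, *Gmeb1* and *Tyw3* had r = 0.85, 0.75 and 0.82 with *Snhg12*. *Sin3b* and *Inpp4a* had 0.82 and 0.83 with *Malat1*, and *Arl6ip5* and *Mafg* 0.85 and 0.83 with *Neat1*. The other named genes moved less, some up and some down.

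Of the snoRNA genes inside the 4 hosts, *Snora73a* and *Snora73b*, both within *Snhg3*, were in the count table. They belong to the U17 family, which takes part in cleavage of the ribosomal RNA precursor. Both passed the threshold as higher in KO and their host did not. *Snora73b* was 64.6 (Prince), 75.3 (Zelda), 185 (Ohio), 239 (Montana), 270 (Oregon), 294 (Medusa), 901 (Massa) and 1278 CPM (Grilka) in KO, and 29.3 to 71.3 CPM in 7 WT tumors with 143 CPM in N215 R hind limb. Of the KO tumors, 6 were above every WT tumor, and all 8 were above the WT median. The log2 fold change was 2.83 (SE 0.59, edgeR adjusted p = 0.0154) for *Snora73b* and 2.23 (SE 0.53, adjusted p = 0.0266) for *Snora73a*, which was 40.8 to 614 CPM in KO and 16.3 to 106 CPM in WT. Per *Snhg3* count, the 2 snoRNAs together held 8.62 (Zelda) to 704.5 counts (Grilka, on 2 counts of *Snhg3*) in KO, and 4.27 to 7.90 counts in 7 WT tumors with 21.9 in N215 R hind limb. The mean log2 ratio was 6.01 in KO and 2.92 in WT (difference 3.09, two-sided exact permutation test over tumors, p = 0.00155), and the difference was 2.85 over mice (exact permutation, p = 0.0303).

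Over tumors, 31 of 54 tested snoRNA genes passed the threshold, all of them higher in KO (57.4%, against 1.86% of all tested genes in that direction). These calls were lost where the shared mice were taken into account or N42 was left out: 0 of 66 snoRNA genes passed in edgeR on counts summed per mouse (41 under an unadjusted p of 0.05, median log2 fold change 1.98), 0 of 65 without N42 (41, median 2.10) and 0 of 54 with limma-voom and the mouse as a random effect (33, median 1.77). With the ribosomal RNA-linked content as a covariate 0 of 54 passed (32, median 1.58). Few genes of any kind passed in these 4 fits: 10 of 16007, 8 of 16050, 17 of 15413 and 7 of 15413, in the same order. Under an unadjusted p of 0.05 were 1262, 1283, 1371 and 1421 of them. The pair in *Snhg3* also followed the ribosomal RNA-linked content of the library, with r = 0.83 (*Snora73a*) and 0.86 (*Snora73b*) over 16 tumors and 0.70 and 0.73 without the 2 farthest. With that content as a covariate the log2 fold changes were 0.77 for each (edgeR adjusted p = 0.670 and 0.683). On counts summed per mouse they were 2.05 and 2.67 (adjusted p = 0.543 and 0.447). Without Massa and Grilka they were 1.40 and 1.67 (adjusted p = 0.0602 and 0.0349), and *Snora73a* also missed the threshold without any single one of 6 WT tumors (adjusted p from 0.0504 to 0.0638). The 2 genes are copies of a single family, so reads may be shared between them, and *Snora73a* overlaps exons of the *Snhg3* model by 159 bases.

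**Figure D5:**
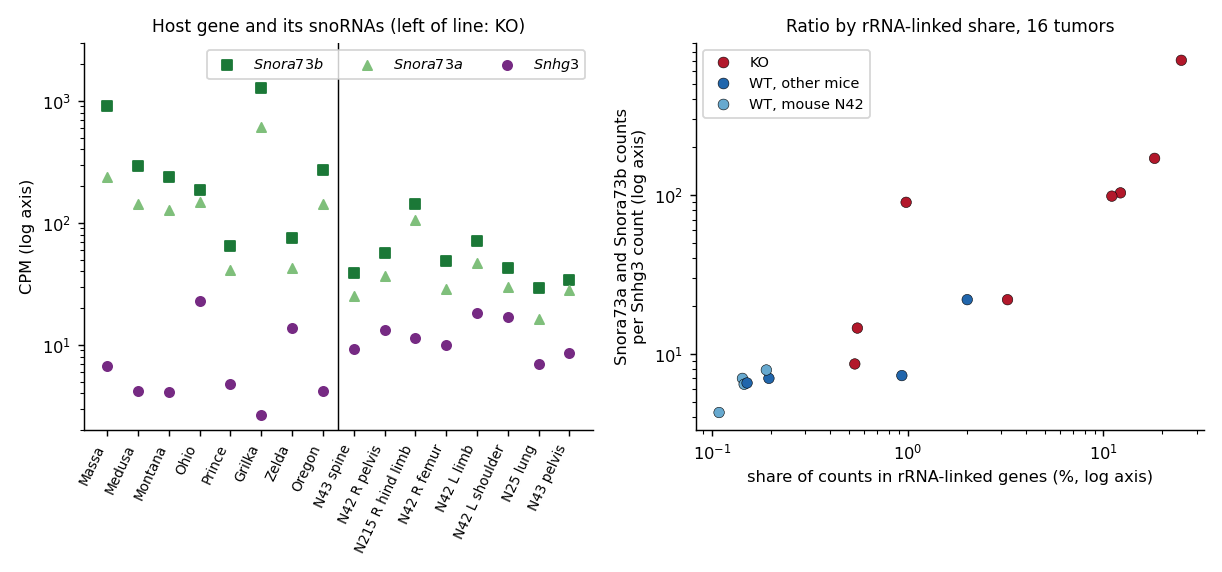
Left, CPM of *Snhg3* and of the snoRNA genes inside it in each tumor (logarithmic axis). Right, counts of *Snora73a* and *Snora73b* together per *Snhg3* count (vertical) against the percentage of counts in ribosomal RNA-linked genes (horizontal, both logarithmic), 1 point per tumor. The ratio is 4.27 to 21.9 in WT and reaches 704.5 in Grilka, the KO tumor with the largest ribosomal RNA-linked share.

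Neither of the genes that share a span with a host passed the threshold. *Rcc1*, a chromatin protein gene that shares 135 exonic bases with *Snhg3* on the same strand, had a log2 fold change of -0.05 (SE 0.35, edgeR adjusted p = 0.956). *Zbtb37*, which overlaps the start of *Gas5* on the opposite strand with no shared exonic base, had -0.50 (SE 0.31, adjusted p = 0.341).

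Of 15 other snoRNA hosts tested, 0 passed the threshold and 6 were under an unadjusted p of 0.05 (median log2 fold change 0.45). *Snhg11* was 193 ± 377 CPM in KO and 19.8 ± 14.8 CPM in WT (SD, n = 8 each), with 1044 CPM in Massa (log2 fold change 3.27, SE 1.19, edgeR adjusted p = 0.115). *Snhg17* was 24.8 ± 23.4 and 19.8 ± 8.79 CPM and, like *Gas5*, highest in Ohio. *Snhg18* was 16.9 ± 8.26 CPM in KO and 37.7 ± 25.4 CPM in WT (-1.18, SE 0.46, adjusted p = 0.141). Of 9 snoRNA particle proteins 0 passed and 3 were under an unadjusted p of 0.05. *Nop56*, the partner of *Nop58*, was 95.03 ± 73.6 CPM in KO and 35.8 ± 13.8 CPM in WT (1.41, SE 0.44, adjusted p = 0.0724), whereas *Nop58* was 60.3 ± 43.02 and 58.4 ± 32.9 CPM (0.06, SE 0.40, adjusted p = 0.951).

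Of 10 factors of nonsense-mediated decay, the pathway that removes spliced host RNAs, 1 passed the threshold. *Upf3b*, which links the decay machinery to exon junctions, was 46.8 ± 25.5 CPM in KO and 19.3 ± 4.22 CPM in WT (log2 fold change 1.258, SE 0.29, edgeR adjusted p = 0.0240), highest in Massa at 100.4 CPM. It was named after its values were seen. Its adjusted p was 0.0538, 0.0539, 0.0548 and 0.0556 without N43 spine, N42 R pelvis, N42 R femur and N42 L shoulder, 0.507 without all tumors of N42 and 0.636 with the ribosomal RNA-linked covariate. *Upf1*, the central helicase, was 108 ± 42.2 and 76.1 ± 35.8 CPM (0.51, SE 0.29, adjusted p = 0.298). Of 19 translation mRNAs with an oligopyrimidine start, 0 passed and 2 were under an unadjusted p of 0.05 (median 0.17). *Eef1a1*, the most abundant of them, was 2033 ± 918 CPM in KO and 2003 ± 346 CPM in WT (0.02, SE 0.33, adjusted p = 0.979).

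Of 15 other nuclear long noncoding RNAs tested, 0 passed the threshold and 3 were under an unadjusted p of 0.05, with a median log2 fold change of 0.19. *Tug1* was 113 ± 62.5 CPM in KO and 196 ± 44.8 CPM in WT (-0.79, SE 0.31, edgeR adjusted p = 0.147). *H19*, an imprinted RNA abundant in fetal muscle, was 206 ± 337 and 88.6 ± 99.8 CPM, highest in Montana, which carried muscle genes. Among all 621 tested genes annotated as lincRNA, antisense or processed transcript, 17 passed (2.74%, beside 4.01% of all tested genes).

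Sites could be compared only among WT tumors, and a site was held by 1 or 2 tumors, so the values are a description. The 2 pelvic tumors, from N42 and N43, held 9413 and 3326 CPM of *Neat1* and 28.6 and 3.81 CPM of *Miat*, while *Gas5* was close, at 58.2 and 52.8 CPM. The lung tumor of N25 had the lowest *Snhg3* (6.97 CPM) and *Miat* (1.68 CPM) of the WT tumors and lay within their range for the other 7 RNAs. Tumors of a shared mouse were alike for some RNAs only. The SD of log2 CPM among the 4 tumors of N42 was 0.15 for *Kcnq1ot1* and 0.48 for *Neat1*, against 0.94 and 1.35 between the means of the 4 WT mice, whereas for *Miat* it was 1.49 against 1.256 and for *Snhg1* 0.82 against 0.77.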

How the data were processed

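RNA depleted of ribosomal RNA was sequenced from a single end in 16 tumors, grouped by genotype label. The authors aligned reads to mm10 with Novoalign 2.08.01 and deposited raw counts per gene, which they tested with DESeq2 1.26.0. Reads with several alignments were allowed, so counts of gene copies are uncertain. Here edgeR 4.0.16 (R 4.3.3) was run with TMM factors, filterByExpr (minimum count 10, minimum total 15), glmQLFit and glmQLFTest, with Benjamini-Hochberg adjustment over 15413 genes. Log2 CPM used a prior count of 2. Exact permutation tests enumerated 12870 assignments of tumors (smallest p 0.000155) or 495 of mice (smallest p 0.00202). P-values measure the spread between these tumors. Alternatives used DESeq2 1.42.0, limma-voom (limma 3.58.1) with the mouse as a random effect, other scalings and left-out tumors. The fits were also run on simulated counts with known changes. Those counts had no mouse effect and less spread between tumors than these data, so they do not test error rates in this design. GENCODE vM21 held 24974 of the 25054 gene identifiers. Values at 3 counts cover counting error only. The members and lists were chosen with earlier results of these data known. Named genes are the members, the 3 genes most alike to each, genes overlapping a member, and at most 4 per list by mean CPM or by a link to a member. Fits without Montana, Oregon and Prince, the ratios, and the genes around *Pvt1* were chosen after seeing the data.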

Additional observations from a re-analysis of the deposited data

Results flagged for a closer look

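Among 22 groups of 8 tumors (9 RNAs and 2 snoRNA genes in KO and in WT), the gap between the extreme tumor and its nearest neighbor was large against the range of the group in 2, by Dixon's criterion on log2 CPM, where chance alone gives about 1 in 20. *Pvt1* in Ohio stood apart among the KO tumors, with a gap of 0.551 of the range (1330.1 CPM, next highest Oregon at 38.6 CPM). *Kcnq1ot1* in N215 R hind limb stood apart among the WT tumors, with a gap of 0.532 of the range (695 CPM, next highest N43 pelvis at 285.5 CPM). Both tumors were also the highest of their group for *Nop58* (145 and 130 CPM), and N215 R hind limb had the largest ribosomal RNA-linked share (2.01%) and the fewest counts of the WT tumors, and their part in the value was not tested.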

How the results depend on the processing

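No paired analysis was possible because KO and WT tumors came from different mice. The number of genes past the threshold, 618, was 2517 with DESeq2, 17 with limma-voom and the mouse as a random effect, 10 on counts summed per mouse, 8 without N42, 7 with the ribosomal RNA-linked covariate, and 252 to 1348 with 1 tumor left out. For the 9 RNAs, 226 of 243 alternative fits kept the direction and side of the threshold. The fit without the lung tumor is also a fit with 1 tumor left out, so it enters every total of 27 or 243 under both names. With limma-voom the log2 fold change reversed for *Kcnq1ot1* (-0.21), *Miat* (-0.63), *Pvt1* (-0.52), *Gas5* (-0.0572) and *Snhg1* (-0.0035), and with DESeq2 for *Pvt1* (-0.92). *Neat1* reversed without N42 (0.39) and with the covariate (0.45), and *Snhg3* with the covariate (0.28) and without Massa, Grilka, Montana, Oregon and Prince (0.18), where *Snhg12* passed (1.21). With 1 tumor left out the ranges were -0.12 to 0.86 (*Miat*, lowest without Medusa), -2.28 to 2.34 (*Pvt1*, without Ohio and without N215 R hind limb), -0.21 to 0.32 (*Gas5*) and -0.45 to 0.45 (*Snhg1*), both lowest without Ohio. *Gas5* (-0.09) and *Snhg1* (-0.09) also reversed without Zelda. In the permutation test, plain library totals reversed *Malat1* (-0.31) and *Snhg12* (-0.30) and took *Neat1* (-1.93, exact permutation p = 0.0376) and *Snhg3* (-1.47, p = 0.0244) past the threshold, as a prior count of 0.5 did *Snhg3* (-0.87, p = 0.0493). The cause of these changes was not tested. The calls of *Snora73a*, *Snora73b*, *Upf3b* and *Nap1l4* held in 15, 22, 19 and 11 of 27 alternatives each. Most of these alternatives leave out 1 tumor and still count tumors of a shared mouse as independent. None of these calls held with limma-voom and the mouse as a random effect, on counts summed per mouse, without N42 or with the covariate. The lowest adjusted p among those fits was 0.294 (*Snora73b*, limma-voom). Depth limits the precision of *Kcnq1ot1*, *Miat*, *Pvt1*, *Snhg1*, *Snhg3* and *Snhg12* in Massa and Grilka, with 1 to 17 counts each. *Kcnq1ot1* there, at 13.4 and 8.06 CPM, was still below every other tumor (at least 130 CPM).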
